A study of Arabidopsis thaliana with 12 samples.

Results

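PETAL LOSS (PTL, AT5G03680) and SHORT INTERNODES (SHI, AT5G66350) encode transcription factors that regulate organ growth in Arabidopsis thaliana. Both were followed here along the flowering stem. The genes were found by their symbols in the annotation of the array's probe sets. Each had 1 probe set (250908_at for PTL and 247093_at for SHI), so 2 genes of the 13356 with a probe set of their own are described. They had been put forward because both were higher at the stem base than in the first internode of wild-type plants, so that difference is a description here and carries no test.

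The 12 arrays formed 4 groups of 3. These were the stem base of wox4-1 plants, the stem base of wild-type Columbia plants, the first internode of wox4-1 plants and the first internode of wild-type plants. The name wox4-1 stands for a mutant allele of WOX4, a homeobox gene known to maintain the cambium, and the labels give the ecotype for the wild type alone. No group was treated, and every array was a biological replicate made from 13 to 17 pooled stems. Plants were 49 to 58 days old and 15 to 20 cm tall, and were moved to long days (16 h of light) after 3 weeks of short days (8 h). Each fragment was 0.5 cm long, cut either at the base or 1.5 to 2.0 cm over the top rosette leaf. Levels are log2 values made by the authors with RMA, a method that normalizes all arrays to a common distribution.

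PTL belongs to the trihelix family, plant DNA-binding proteins first found through GT elements of light-responsive promoters. PTL is known from flowers, where it restrains growth between the sepals and is needed for petals to form in their places. SHI belongs to the SHI/STY family of RING-like zinc finger proteins. Plants with excess SHI have short internodes and respond weakly to gibberellin, the hormone that drives stem elongation, and the family is known to promote auxin synthesis through YUC genes.

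The array medians lay between log2 5.56 and 5.71, and replicates had correlations of 0.992 to 0.997 across probe sets. The 3′ to 5′ difference of the actin control, a sign of RNA quality, was 2.26 for replicate 2 of the wox4-1 internode and 1.22 to 1.51 on the other 11 arrays. WOX4 itself has no named probe set here, which leaves the genotype labels without a check by the mutated gene. Of the 12 listed markers of vascular and fibre cells, 3 were measured (CLE41, CLE44 and MOL1), which leaves the stem label checked by few genes.

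PTL was higher at the base of the stem than in the internode in both genotypes. In wox4-1 it measured log2 6.65, 6.90 and 6.93 on the base arrays, against 5.25, 5.49 and 5.40 on the internode arrays. In wild type it measured 7.23, 7.11 and 7.34 on the base arrays, against 5.90, 5.40 and 5.26 on the internode arrays. Every base array lay above every internode array of its genotype. The lowest base value was that of wox4-1 replicate 1, and the highest internode value that of wild-type replicate 1.

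In wox4-1, whose arrays took no part in the wild-type contrast, PTL rose 2.73-fold at the base. The log2 difference was 1.45 (SE 0.14, n = 3 against 3, limma adjusted p 1.07e-05), with a 95% interval from 1.14 to 1.76. Of all 22746 probe sets tested, 11.4% were called higher at the wox4-1 base at an adjusted p under 0.05, and 21.1% had base arrays that all lay above the internode arrays. PTL ranked at place 96 of them by the size of its rise. Without the wox4-1 internode replicate 2 array the difference was 1.50. In wild type the difference was 1.71 (SE 0.14, 3.26-fold, 95% interval 1.40 to 2.01), given as a description since it chose the gene. There 19.7% of probe sets were called, 9.6% as higher and 10.1% as lower, and 20.4% had base arrays that all lay above the internode arrays. Each sample was bulk stem tissue, so a larger share of cells with PTL RNA and more PTL RNA per cell cannot be told apart.

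SHI was also higher at the base of the stem than in the internode in both genotypes. In wox4-1 it measured log2 4.87, 5.24 and 4.70 on the base arrays, against 4.44, 4.15 and 3.999 on the internode arrays. In wild type it measured 4.58, 4.78 and 5.24 on the base arrays, against 4.12, 4.12 and 4.10 on the internode arrays. Again every base array lay above every internode array of its genotype. The same held for 21.1% of all probe sets in wox4-1 and for 20.4% in wild type, the contrast that chose SHI. The base arrays of both genotypes were spread widely, with an SD of 0.28 in wox4-1 and 0.34 in wild type, while the wild-type internode arrays spanned 0.016. The SHI probe set was dim, with group means of log2 4.11 to 4.94, below every array median (5.56 to 5.71). These means lay above 33.7% to 43% of probe sets.

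In wox4-1, SHI rose 1.67-fold at the base, by log2 0.74 (SE 0.17, n = 3 against 3, limma adjusted p 0.00586, 95% interval 0.38 to 1.10). This places it at 398 of the 22746 probe sets by size, of which 11.4% were called higher. In wild type the difference was 0.76 (SE 0.17, 1.69-fold, 95% interval 0.39 to 1.12), again a description.

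Array measures moved with position in wox4-1 beside these rises. The GAPDH 3′ to 5′ difference was -0.12 ± 0.07 on the base arrays and 0.21 ± 0.28 on the internode arrays (SD, n = 3 each), and its groups did not overlap. The actin difference was 1.29 ± 0.06 on the base arrays and 1.63 ± 0.54 on the internode arrays, and its groups overlapped. The array medians were log2 5.56 to 5.61 at the base and 5.66 to 5.71 in the internode. With each array centred on its median the rises were 1.54 for PTL and 0.83 for SHI. Without wox4-1 internode replicate 2, the array with the highest value of both controls, SHI rose by 0.72 (SE 0.20, limma adjusted p 0.0233). The part of RNA quality otherwise was not tested.

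**Figure D1:**
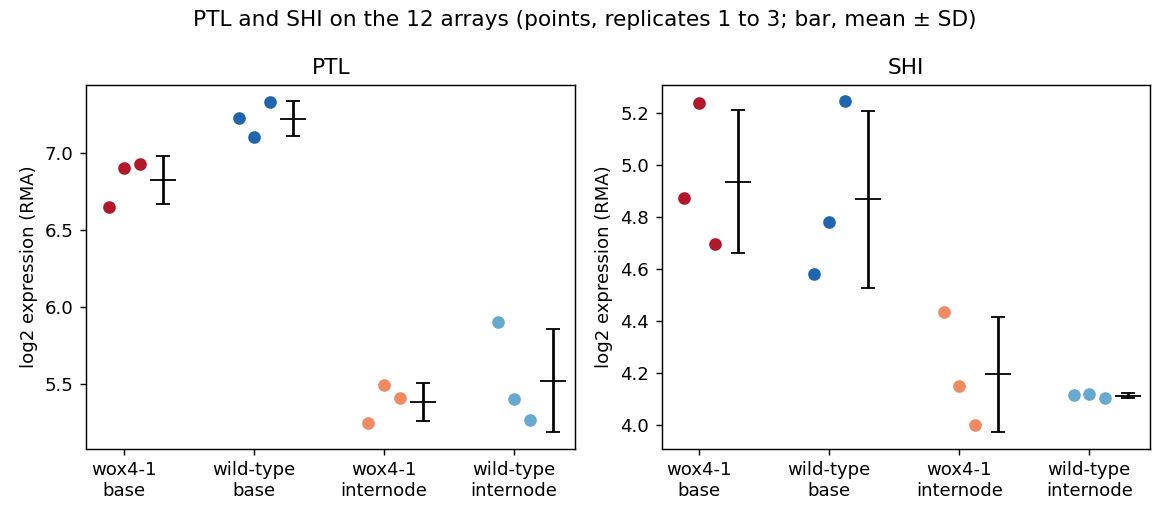
Log2 expression (RMA values, vertical axes) of PTL (left) and SHI (right) on every array, with 3 points per group for replicates 1 to 3 and a bar for the mean ± SD. For both genes all base points lie above all internode points, and PTL alone of the 2 has base groups that do not overlap between genotypes.

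The genotype comparison at the base asked whether the wox4-1 mutation goes with a different level of the 2 genes. PTL averaged log2 6.83 ± 0.16 in wox4-1 and 7.23 ± 0.11 in wild type (SD, n = 3 each). The highest wox4-1 array, at 6.93, lay below the lowest wild-type array, at 7.11. The difference of -0.40 (SE 0.14, 0.76-fold, 95% interval -0.71 to -0.09) had an unadjusted p of 0.0157 and did not pass after adjustment over all probe sets (limma adjusted p 0.129). At the base 5.04% of probe sets were called, 2.52% as higher and 2.51% as lower in wox4-1, and 11.6% had non-overlapping groups in that direction. Across the alternative analyses the adjusted p for PTL ran from 0.0508 to 0.294. The genotype comparisons of PTL and SHI use the same wild-type arrays that chose the 2 genes.

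Signs of RNA quality were also compared between genotypes at the base. The actin 3′ to 5′ difference was 1.29 ± 0.06 in wox4-1 and 1.47 ± 0.04 in wild type (SD, n = 3 each), and its groups did not overlap. That of the GAPDH control was -0.12 ± 0.07 in wox4-1 and 0.03 ± 0.11 in wild type, and its groups overlapped. The part of either control in the PTL difference was not tested.

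SHI showed no difference between genotypes beyond the spread of its arrays at the base. It averaged log2 4.94 ± 0.28 in wox4-1 and 4.87 ± 0.34 in wild type, and the groups overlapped over most of their range. The difference was 0.07 (SE 0.17, limma adjusted p 0.854). Its 95% interval, from -0.29 to 0.43, leaves room for a change of either sign.

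In the first internode neither gene passed. PTL averaged log2 5.38 ± 0.12 in wox4-1 and 5.52 ± 0.34 in wild type, a difference of -0.14 (SE 0.14, 95% interval -0.45 to 0.17, limma adjusted p 0.898). The wide wild-type spread came from replicate 1, and without that array the difference was 0.049. SHI averaged 4.19 ± 0.22 in wox4-1 and 4.11 ± 0.0087 in wild type, a difference of 0.08 (SE 0.17, 95% interval -0.28 to 0.44, limma adjusted p 0.962). Both genes overlapped between genotypes here. In this comparison 0.242% of all probe sets were called, and groups did not overlap for 7.89% of them in the higher and 6.79% in the lower direction.

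The difference between the genotype effects at the base and in the internode was tested as an interaction. It equals the wox4-1 rise at the base minus the wild-type rise. The wild-type rise chose the genes, so the interaction is not independent of that choice. For PTL it was -0.26 (SE 0.20, 95% interval -0.69 to 0.18, limma adjusted p 0.759), and for SHI -0.01 (SE 0.24, 95% interval -0.53 to 0.50, limma adjusted p 0.992). Only 1 probe set, or 0.0044%, was called there, while 1827 had an unadjusted p under 0.05.

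**Figure D2:**
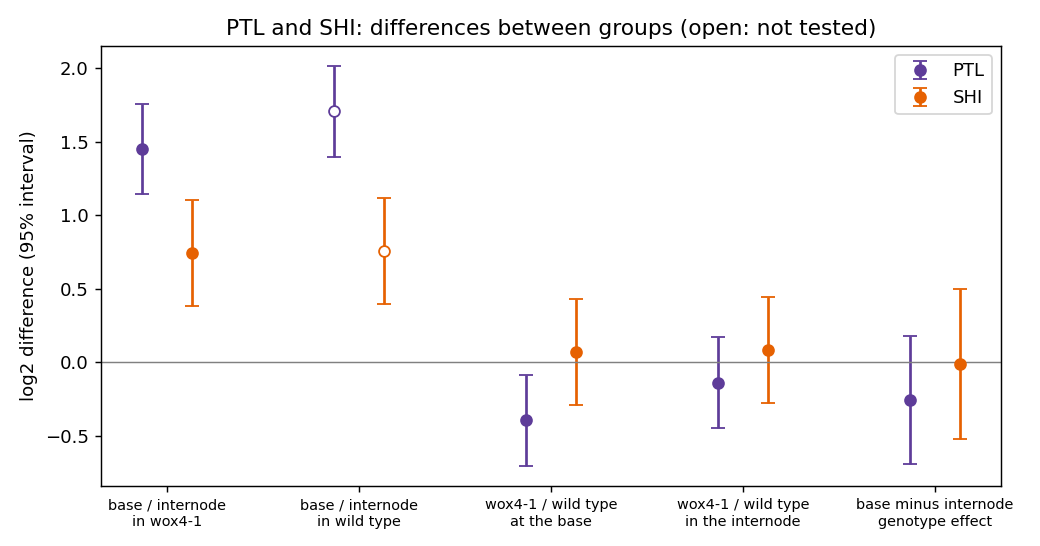
Log2 differences between groups (vertical axis) for PTL and SHI in the 5 comparisons, with 95% intervals from limma. For base over internode in the mutant, the intervals of both genes lie above 0. That of PTL for genotype at the base lies below 0 (adjusted p 0.129), and those of the other tested comparisons span 0. Open points mark the wild-type difference that chose the genes, whose intervals are a description and carry no test.

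The order of PTL levels ran from the wild-type base (7.23) over the wox4-1 base (6.83) and the wild-type internode (5.52) to the wox4-1 internode (5.38). Between neighbours in this order, the base groups did not overlap but missed the adjusted threshold, and the internode groups overlapped. For SHI the order was wox4-1 base (4.94), wild-type base (4.87), wox4-1 internode (4.19) and wild-type internode (4.11). The groups overlapped within each position. For both genes the wide step of the order lay between base and internode, a step that in wild type chose the genes.

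Of 29 listed trihelix genes, 18 besides PTL were measured. In wox4-1, 2 of the 18 rose at the base and 1 fell, with a median log2 difference of -0.0048, against 0.04 over all probe sets, of which 11.4% were called higher and 13% lower. The genes that rose were AT3G10040 by 1.13 (SE 0.13, limma adjusted p 5.14e-05) and AT3G11100 by 0.42 (SE 0.10). GT-1, a founding member of the family that binds GT elements, fell by 0.44 on the log2 scale (SE 0.09, limma adjusted p 0.00252).

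In wild type 5 of the 18 rose at the base and 1 fell, with a median of 0.06, against 0.01 over all probe sets, of which 9.6% were called higher and 10.1% lower. AT3G10040 rose by 1.50 (SE 0.13, limma adjusted p 4.91e-06), AT3G11100 by 0.44 (SE 0.10) and AT3G54390 by 0.42 (SE 0.09). AT3G25990 fell by 0.43 on the log2 scale (SE 0.14, limma adjusted p 0.0432), a call that ended in 9 of 18 alternatives. Without both wild-type replicate 2 arrays, 3 of the 18 were called, while the calls over all probe sets went from 4485 to 2435. Between genotypes 2 of the 18 fell at the base, where the median was -0.10 and 2.51% of all probe sets were called lower. They were AT3G10040, described next, and AT3G10030 by 0.47 on the log2 scale (SE 0.10, limma adjusted p 0.0163). The second call ended in 4 of 19 alternatives, with adjusted p from 0.0519 to 0.0704. None passed in the internode, where AT3G11100 differed by -0.32 (limma adjusted p 0.32) and GT2 by 0.29 (0.442), nor as an interaction, where AT3G10030 had -0.39 (0.569) and AT2G44730 -0.26 (0.579).

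In the mutant, PTL and AT3G10040 were the only measured family members whose difference along the stem exceeded log2 1. The same held in wild type, but there the difference chose PTL, so its place in the family is a description.

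**Figure D3:**
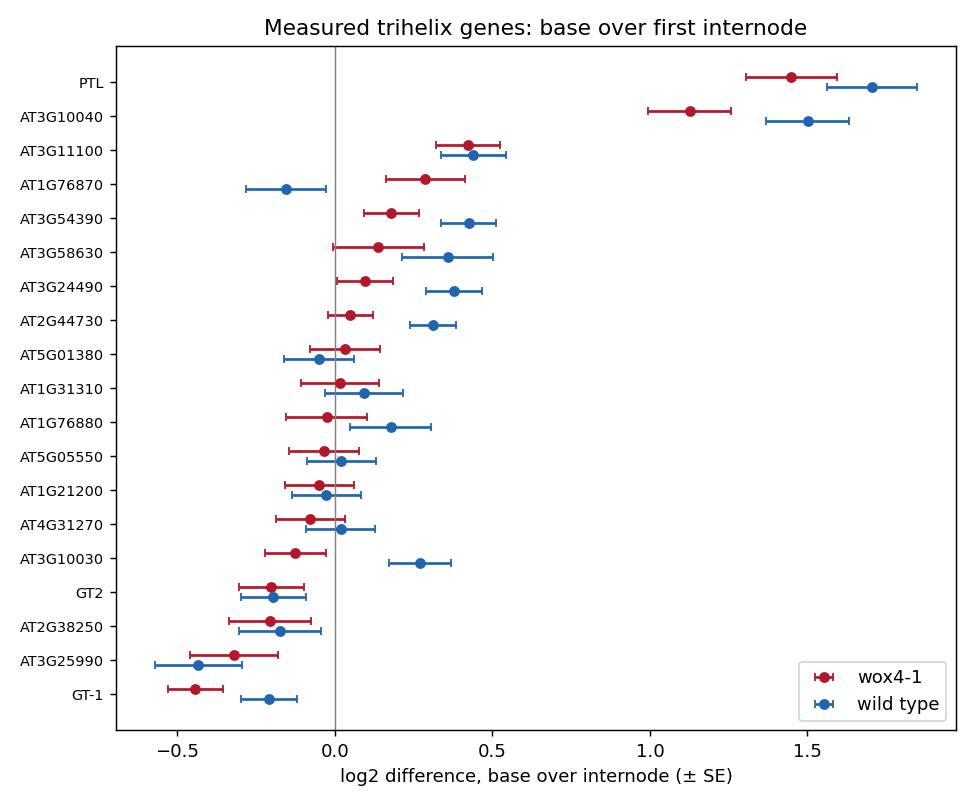
Log2 difference of base over internode (horizontal axis, ± SE) for PTL and the 18 other measured trihelix genes, in wox4-1 (red) and wild type (blue), ordered by the wox4-1 value. PTL and AT3G10040 stand at 1.13 to 1.71, and the other genes lie between -0.44 and 0.44. The wild-type value of PTL chose it and was not tested.

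AT3G10040, also named HYPOXIA RESPONSE ATTENUATOR1 (HRA1), is known to restrain the transcriptional response to low oxygen. Its profile was also among the nearest to PTL of the whole array. Nearness was the root mean square difference between 2 profiles over the 12 arrays, each centred on its own mean. Among 13355 other genes the nearest to PTL were AT1G49830 at 0.12, AT3G10040 at 0.20, AT3G27220 at 0.21, AT1G44760 at 0.22 and AT3G21770 at 0.23. PTL itself departed from its own mean by 0.82 on this measure. The 12 arrays share the step between base and internode, so this likeness is a description.

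AT3G10040 measured log2 5.02, 5.45 and 5.40 on the wox4-1 base arrays, against 6.04, 5.90 and 5.72 on the wild-type base arrays. In the internode it measured 3.97, 4.29 and 4.24 in wox4-1, against 4.56, 4.36 and 4.24 in wild type. Its base groups did not overlap, as for 11.6% of all probe sets in that direction. It fell by 0.60 on the log2 scale in wox4-1 at the base (SE 0.13, limma adjusted p 0.0234). The call ended in 6 of 19 alternatives. These were without wox4-1 base replicate 1 (adjusted p 0.0619), wild-type base replicate 1 (0.0837) or 2 (0.085), both wild-type replicate 2 arrays (0.105), with a block within each position (0.0654) and with only the compared groups (0.0643).

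AT1G49830 and AT3G27220 differed between wox4-1 and wild type at the base by -0.48 and -0.42. AT1G44760 and AT3G21770 differed there by -0.11 and -0.17. All 5 were higher at the base than in the internode, by 1.13 to 1.84 in wox4-1 and by 1.32 to 1.71 in wild type, and the choice by nearness over all 12 arrays bears on the genotype and the position values alike.

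The profiles nearest to SHI were AT5G41920 at 0.17, SBT3.3 at 0.17, and AT1G19540, AT3G58200 and AT1G28600 at 0.18 each, while SHI departed from its own mean by 0.43. AT5G41920 is SCL23, a transcription factor of the GRAS family, and SBT3.3 encodes a subtilisin-like protease. They were higher at the base by 0.62 to 0.91 in wox4-1 and by 0.52 to 0.77 in wild type. Their genotype differences at the base ran from -0.18 to 0.20, and the choice by nearness over all 12 arrays bears on these values too.

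**Figure D4:**
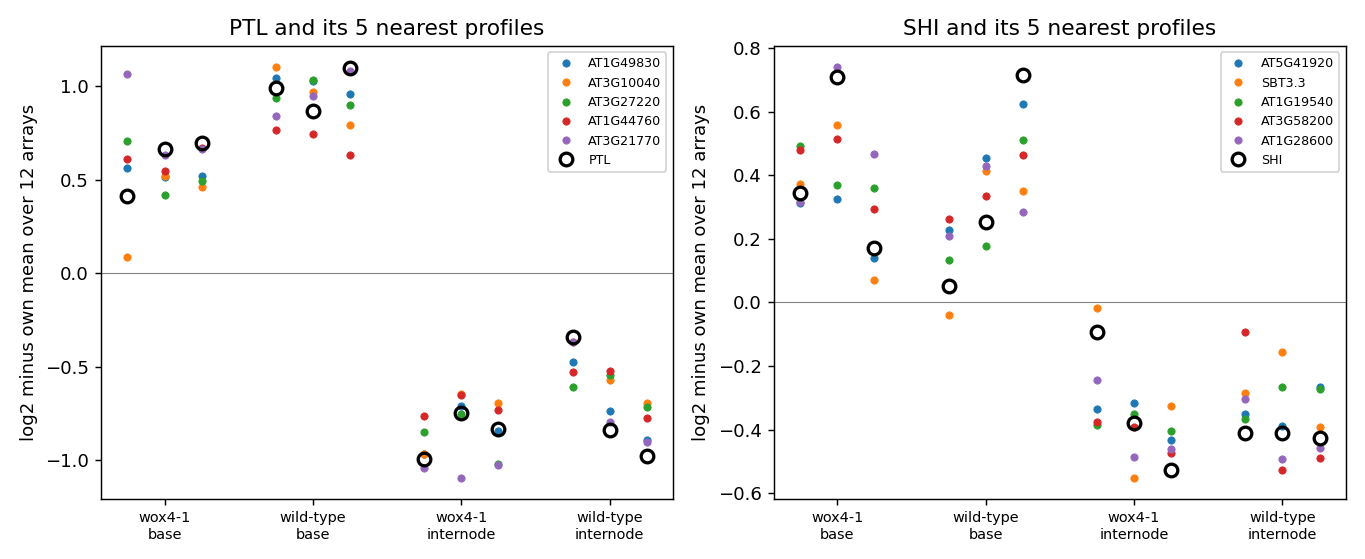
Log2 values minus each gene's own mean over the 12 arrays (vertical axes) for PTL and its 5 nearest genes (left) and for SHI and its 5 nearest (right), with replicates 1 to 3 side by side in each group. Open black rings mark PTL and SHI, and each gene shown is higher on the base arrays than on the internode arrays of the same genotype.

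The loci next to PTL and SHI were read in the gene order of the TAIR10.1 reference table, with 2 protein-coding genes on each side. They were picked by place after the values of PTL and SHI were known. TRM28 (AT5G03670), the locus directly before PTL, belongs to the TON1 Recruiting Motif family, which is linked to microtubule organization. It measured log2 6.38, 6.28 and 6.37 on the wox4-1 base arrays, against 6.87, 7.20 and 7.21 on the wild-type base arrays. In the internode it measured 5.43, 5.67 and 5.44 in wox4-1, against 5.91, 5.65 and 5.64 in wild type. The base groups lay apart, as for 11.6% of all probe sets in that direction, and the internode groups overlapped.

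TRM28 rose at the base by 0.83 in wox4-1 (SE 0.11, limma adjusted p 0.000129) and by 1.36 in wild type (SE 0.11, limma adjusted p 2.16e-06). At the base it fell by 0.75 on the log2 scale in wox4-1 relative to wild type (SE 0.11, limma adjusted p 0.00221), and these 3 calls held in all 19 alternatives. Its interaction of -0.53 did not pass (SE 0.16, limma adjusted p 0.493). TRM28 thus has the same order of groups as PTL, with the wild-type base highest and the wox4-1 internode lowest. The 5 genes nearest to PTL have this order too, so it is not particular to the adjacent locus. Whether the 2 probe sets detect separate transcripts was not tested.

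The other measured neighbours had smaller differences. AT5G03700, the second locus after PTL, rose by 0.32 at the wox4-1 base (limma adjusted p 0.0422) and differed by 0.18 in wild type (0.303). AT5G03660, the second locus before PTL, differed by 0.04 and 0.14 in the same comparisons. Of the 4 neighbours of SHI, 3 were measured (AT5G66340, DIM1B and AT5G66370), with differences of 0.07 to 0.30 in wox4-1 and -0.01 to 0.12 in wild type, none of which passed.

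**Figure D5:**
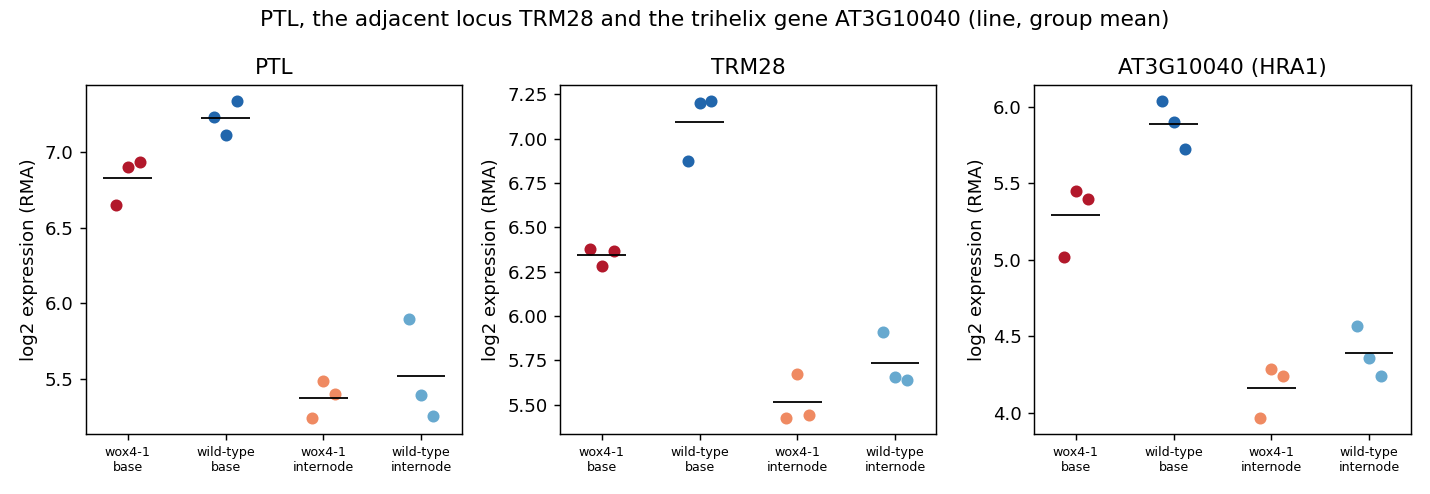
Log2 expression (RMA values, vertical axes) of PTL, the adjacent locus TRM28 and the trihelix gene AT3G10040 (HRA1) on each array, with a line at the group mean. In all 3 panels the wild-type base points lie highest, above the wox4-1 base points, and the internode points lie lowest.

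SHI was the only 1 of 10 listed SHI/STY family genes with a named probe set, so its relatives STY1, STY2, LRP1 and the SRS genes are not analysed here. Genes of the hormone routes tied to SHI were measured in part. Of 35 gibberellin genes 6 were measured, and 3 of them rose at the base in each genotype, with a median of 0.30 in wox4-1 and 0.33 in wild type. Over all probe sets the medians were 0.04 in wox4-1 and 0.01 in wild type, and 11.4% and 9.6% were called higher. GID1A, which encodes a gibberellin receptor, rose by 0.98 in wox4-1 (SE 0.12, limma adjusted p 6.08e-05) and by 1.12 in wild type (SE 0.12, limma adjusted p 2.11e-05). SLY1, for an F-box protein that targets gibberellin's DELLA repressors for breakdown, rose by 0.42 in wox4-1 and 0.38 in wild type, and its relative SLY2 by 1.11 in wox4-1 and 0.37 in wild type. The SLY1 calls ended in 3 of 19 alternatives in wox4-1 and 6 of 19 in wild type, and the wild-type call of SLY2 in 5 of 19. Without both wild-type replicate 2 arrays 1 of the 6 was called in wild type, while the calls over all probe sets went from 4485 to 2435.

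Between genotypes 1 of the 6 gibberellin genes fell at the base and 1 rose, with a median of -0.37, against 0.02 over all probe sets, of which 2.51% were called lower and 2.52% higher. GID1A fell by 0.87 on the log2 scale in wox4-1 (SE 0.12, limma adjusted p 0.00151) and by 0.73 in the internode (limma adjusted p 0.0233, a call that ended in 7 of 19 alternatives). SLY2 rose by 0.52 at the base (SE 0.10, limma adjusted p 0.0121), which ended without both wild-type replicate 2 arrays (0.0527) and without wild-type base replicate 1 (0.0515). The receptor genes GID1B and GID1C, chosen after their values were seen, differed by -0.40 each at the base and did not pass (limma adjusted p 0.0546 and 0.0874). SPY differed by -0.35 (limma adjusted p 0.218) and SLY1 by -0.055 (0.817).

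Of 15 listed auxin synthesis and uptake genes 4 were measured, all of the YUC family of flavin monooxygenases, and none passed along the stem in either genotype. Over all probe sets 24.5% were called along the stem in wox4-1 and 19.7% in wild type, and 4 genes are few beside these shares. YUC4, known as a target of the SHI relative STY1, differed between base and internode by 0.15 in wox4-1 (SE 0.08, limma adjusted p 0.209) and by -0.064 in wild type. It was dim, with group means of log2 3.10 to 3.24, where the lowest value of any array was 2.29. Its lack of a call therefore says little about YUC4 RNA. YUC11 differed by 0.32 in wox4-1 (SE 0.12, limma adjusted p 0.0637) and by 0.16 in wild type (0.413). YUC6 differed by -0.14 in wox4-1 and -0.23 in wild type, and YUC2 by -0.051 in wox4-1 and -0.17 in wild type. YUC6 rose in wox4-1 by 0.77 at the base (SE 0.11, limma adjusted p 0.00221) and by 0.67 in the internode (SE 0.11, limma adjusted p 0.0276). The internode call ended in 6 of 19 alternatives. Of all probe sets 2.52% were called higher in wox4-1 at the base and 0.11% in the internode.

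Other regulators of organ growth and boundaries were sparsely covered. Of 38 organ growth genes 7 were measured. BPEp, a basic helix-loop-helix factor that limits petal size, rose at the base by 0.53 in wox4-1 (SE 0.12, limma adjusted p 0.00551) and by 0.71 in wild type (SE 0.12, limma adjusted p 0.000781), and both calls held in all 19 alternatives. SEU, a transcriptional co-regulator in flowers, fell by 0.35 on the log2 scale at the wox4-1 base (limma adjusted p 0.0475), a call that ended in 12 of 19 alternatives. Between genotypes none passed, and at the base SAP differed by 0.42 (limma adjusted p 0.059) and SEU by -0.36 (0.0967). In the internode NUB and BPEp each differed by 0.11. The medians of this list along the stem were 0.03 in wox4-1 and 0.02 in wild type, against 0.04 and 0.01 over all probe sets.

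Of 24 boundary and meristem genes LAS, RBE and UFO were measured, and none passed in any comparison. RBE, which like PTL acts on petal formation, differed along the stem by 0.17 in wox4-1 (SE 0.13) and by -0.10 in wild type, and between genotypes at the base by 0.21 (limma adjusted p 0.384). RBE was dim, with group means of log2 3.26 to 3.47. UFO differed between genotypes by 0.21 at the base (limma adjusted p 0.134) and by 0.16 in the internode (0.639). Of 12 polarity genes 3 were measured. YAB5, of the YABBY family, fell at the base by 0.50 on the log2 scale in wox4-1 (SE 0.11, limma adjusted p 0.00561). In wild type it fell by 0.37 (limma adjusted p 0.0311), a call that ended in 6 of 18 alternatives. Over all probe sets 13% were called lower in wox4-1 and 10.1% in wild type. YAB5 was dim, with group means of log2 2.97 to 3.47, where the lowest value of any array was 2.29. The filter on probe sets under log2 5 in every group left it out. Between genotypes no polarity gene passed, with YAB3 at 0.16 and PHV at -0.10 at the base.

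Markers of tissues that a stem fragment could carry were few. No gene on the lists for axillary buds (3 genes), flowers (7) or roots (6) had a named probe set. Of 7 genes of leaf epidermis and trichomes 3 were measured, the stomatal genes SPCH, MUTE and FMA, and none passed in any comparison. All 3 were dim, with group means of log2 3.01 to 3.14 for SPCH, 2.95 to 3.05 for MUTE and 3.69 to 4.13 for FMA. The lowest value of any array was 2.29, so the lack of calls says little about these tissues. Their summed level, the log2 of the 3 linear values added, lay between 4.98 and 5.07 on the wox4-1 base arrays. On the wild-type base arrays it lay between 4.91 and 5.16. In the internode it lay between 4.84 and 4.93 in wox4-1 and between 5.03 and 5.17 in wild type. Of the vascular markers, CLE41 rose at the base by 0.32 in wox4-1 (limma adjusted p 0.0194) and by 0.27 in wild type (0.0486), and MOL1 by 0.51 in wox4-1 (0.00507) and 0.62 in wild type (0.00159). Over all probe sets 11.4% were called higher at the base in wox4-1 and 9.6% in wild type. The CLE41 calls ended in 4 of 19 alternatives in wox4-1 and in 11 of 19 in wild type. Between genotypes CLE44 rose by 0.48 at the base of wox4-1 (limma adjusted p 0.0275), a call that ended in 6 of 19. In that comparison 2.52% of all probe sets were called higher. The summed level of CLE41, CLE44 and MOL1 was 9.87 to 10.14 on the wox4-1 base arrays and 9.86 to 9.94 on the wild-type base arrays, against 9.57 to 9.77 in the wox4-1 internode and 9.55 to 9.70 in the wild-type internode. CLE44 was not called along the stem, with a difference of 0.17 in wox4-1 (limma adjusted p 0.292) and of -0.19 in wild type (0.286). In wild type all its base arrays lay below the internode arrays, as for 18.6% of all probe sets. The part of these markers in the PTL and SHI differences was not tested.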

How the data were processed

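Gene expression was measured with microarrays in pooled stem fragments, 12 arrays in 4 groups taken from the sample titles. The deposited values are log2 expression per probe set, made by the authors with RMA, per the submitters' processing notes, with no version named. The table holds 22810 probe sets. 64 control probe sets were set aside and 22746 tested. Probe sets were named through GEO's platform annotation, where 13513 carry 1 gene, 503 several and 8730 are unnamed here. With several probe sets for a listed gene, the one with the highest mean was used.

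All 12 arrays entered one limma 3.58.1 fit (R 4.3.3), with 1 coefficient for each group and eBayes. P-values were adjusted by Benjamini-Hochberg over all probe sets of a comparison, and an adjusted p under 0.05 was a call. SEs are limma's unless an SD is given. The fit was tested on simulated data. The number of arrays, 3 per group, limits the precision.

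PTL, SHI and the gene lists were chosen with earlier results of these data known. Genes were named by rule: the 2 members, up to 4 called genes per list and comparison with the largest change (where there was none, the 2 members of smallest p, which are printed in part), and the 5 nearest profiles to each member.

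Equal replicate numbers were checked for pairing through the correlation of deviations from group means. It was 0.294, 0.592 and 0.308 between wild-type base and internode arrays, above 0.1 for every number, so these were treated as paired in a blocked alternative. It was 0.136, 0.24 and -0.05 in wox4-1, and -0.06 to 0.06 between genotypes. Alternatives were replicate blocks, only the compared groups, median centring, leaving out probe sets under log2 5 in every group, eBayes with trend and robust, and leaving out arrays. No promoter or protein sequence was used here, so the planned search of promoters for motifs was not run.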

Additional observations from a re-analysis of the deposited data

How the results depend on the processing

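The rise of PTL and SHI at the wox4-1 base kept its direction and its call in every alternative run, with adjusted p up to 0.000122 for PTL and 0.0297 for SHI. SHI was lost to the filter on dim probe sets, which gives it no value. Leaving out 1 array at a time gave 1.38 to 1.54 for PTL and 0.59 to 0.86 for SHI in wox4-1, and 1.58 to 1.90 and 0.57 to 0.90 in wild type. No genotype comparison or interaction of the 2 genes passed in any alternative. The sign of small values turned. Leaving out 1 array gave -0.27 to 0.049 for PTL in the internode, -0.084 to 0.26 for SHI at the base, -0.039 to 0.18 for SHI in the internode and -0.17 to 0.17 for its interaction, which was 0.045 with arrays centred on their medians. The replicate block within each genotype, added after the pairing of the wild-type arrays was seen, gave the same differences, 1.45 for PTL and 0.74 for SHI in wox4-1, and changed no call of the 2 genes. The cause of the changes was not tested.

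Counts of called genes on the lists were small and moved with the setting, as did the counts over all probe sets given below. Along the stem in wild type, leaving out both wild-type replicate 2 arrays gave 3 trihelix, 1 gibberellin and 0 polarity genes. The polarity count was also 0 with the dim filter, in wox4-1 too, and with only the compared groups. The organ growth count in wild type was 2 with the replicate block across all groups, with the block within each genotype and with only the compared groups, and in wox4-1 it was 1 without both wild-type replicate 2 arrays and with only the compared groups. Median centring gave 5 trihelix genes and 1 auxin gene in wox4-1, where the calls over all probe sets went from 5564 to 7022. At the base, trihelix genes between genotypes numbered 1 with the replicate block within each position, and 0 without both wild-type replicate 2 arrays and with only the compared groups, the gibberellin count was 1 without these arrays, and the organ growth count was 1 with the replicate block across all groups and with median centring. In the internode the gibberellin count was 0 with the replicate block within each position, and the gibberellin and auxin counts were 0 without both wild-type replicate 2 arrays.

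Leaving out single arrays gave 5 to 8 trihelix, 1 to 3 gibberellin, 0 to 1 polarity and 1 to 2 organ growth genes along the stem in wild type. In wox4-1 it gave 0 to 1 auxin and 1 to 2 organ growth genes. Between genotypes it gave 0 to 3 trihelix, 1 to 3 gibberellin and 0 to 1 organ growth genes at the base, and 0 to 1 gibberellin and auxin genes in the internode.

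Over all probe sets, 1146 calls at the base between genotypes became 738 with the replicate block within each position, 403 with only the compared groups, 282 without both wild-type replicate 2 arrays, 342, 548 and 650 without wild-type base replicate 2, 1 or 3, and 609 without wox4-1 base replicate 3. The 4485 calls along the wild-type stem became 2435 without both replicate 2 arrays. The 55 calls in the internode ranged from 20 to 110, and the 1 interaction call from 0 to 7. With median centring 67.5% of calls along the wox4-1 stem were higher, against 46.8% as deposited, and 72.4% of calls between genotypes at the base, against 50.1%.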

Other observations

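Another pair of organ growth genes had differences along the stem of opposite sign in the 2 genotypes. SAP, a regulator of flower organ growth, differed between base and internode by 0.27 in wox4-1 and by -0.27 in wild type (interaction 0.53, SE 0.17, limma adjusted p 0.505). SEU fell by 0.35 on the log2 scale in wox4-1 and differed by 0.11 in wild type (interaction -0.46, SE 0.17, limma adjusted p 0.569). Neither interaction passed, and the genes were the 2 with the smallest p of their list. SLY2 had an interaction of 0.74 (SE 0.14, unadjusted p 0.000171, limma adjusted p 0.225), with a rise of 1.11 at the wox4-1 base and of 0.37 at the wild-type base.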
